A study of Mus musculus with 12 samples.

Results

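The comparison described here set cerebellar granule cell cultures carrying the calcium channel splice variant β4b against cultures carrying β4e. It took in 6 of the 12 arrays of the study: 3 titled as β4b replicates 1 to 3 and 3 titled as β4e replicates 1 to 3, joined into pairs by replicate number. All neurons came from lethargic mice on the 129/SvJ background, whose own Cacnb4 is mutated, so every group lacked a normal endogenous β4 gene. Cells were isolated on postnatal day 7, exposed to lentivirus for 12 hours straight after plating, treated with the antimitotic Ara-C, and lysed after 9 days in vitro. The virus delivered β4b, β4e, β4a or, in the control group, eGFP, and the labels give the constructs a bA prefix without spelling it out. Each group had 3 arrays. The labels do not say whether replicates were separate animals or platings, so the p-values measure the spread between these samples, which may be technical.

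Voltage-gated calcium channels are built from a pore-forming α1 subunit and the auxiliary α2δ and β subunits. The β subunit binds the pore subunit from the cytoplasm, helps to bring it to the membrane and tunes its gating, and β4 is the main β isoform of the cerebellum. The splice variants of β4 compared here differ at the amino-terminal end, and β4 subunits have also been found in the nuclei of neurons, which is why the effect of each variant on transcript levels was of interest. Granule cells are the small glutamatergic neurons of the cerebellum, and their transcription responds strongly to calcium entry.

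Values below are log2 GCRMA intensities of probe sets on Affymetrix mouse arrays, and a difference is β4b minus β4e on that scale, so that 1 unit is a doubling of intensity. Of 45101 probe sets, 23044 had a value above 4 in at least 3 of the 12 arrays and were tested. Array medians over all probe sets lay between 3.84 and 3.90. The granule cell identity of the cultures was visible in Gabra6, the GABA-A receptor subunit of mature granule cells. It stood at 13.95, 13.87 and 13.64 in the β4b arrays, against 14.02, 13.89 and 13.64 in the β4e arrays. Of 29 genes on the granule cell list, 28 passed the filter. That list shares Car8 and Calb2 with the list of Purkinje cell, interneuron and unipolar brush cell markers. Transcripts of other cells were also present: 25 of 27 astrocyte and Bergmann glia markers and 18 of 20 oligodendrocyte markers passed, while 13 of 14 endothelial and pericyte markers did not, Pecam1, Cldn5 and Cdh5 among them. In arrays of a mixed culture, fewer cells of a type and less RNA per cell cannot be told apart. The gap between the 3′ and 5′ control probe sets of Actb, a measure of RNA integrity and labelling, was 0.82, 0.85 and 0.92 in the β4b arrays and 1.09, 1.02 and 0.96 in the β4e arrays, with no overlap, and its part in the results below was not tested.

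No gene differed between β4b and β4e cultures past the threshold. The nearest was Rrm2b, 2.19-fold higher with β4b, and the probe sets with the next smallest p-values were those of Lztfl1, 2610507B11Rik, Zeb2 and Dynlt3, all higher with β4b. With limma on all 12 arrays, the replicate number as a block and Benjamini-Hochberg adjustment, 0 of 23044 probe sets had an adjusted p under 0.05, a share of 0%, and the smallest adjusted p was 0.237. At an unadjusted p under 0.05 there were 1638 probe sets, 7.11% of those tested: 1057 higher with β4b (4.59%) and 581 lower (2.52%). Without the replicate block 0 passed and 175 (0.759%) lay under that unadjusted p, 129 higher (0.56%) and 46 lower (0.2%). This split by direction depended on how the arrays were scaled. Centring each array on its median gave 695 higher and 942 lower, and quantile normalization gave 795 and 838, with the median difference over all probe sets at 0.01 as deposited, -0.02 after centring and -0.01 after quantile normalization. All 3 β4b arrays lay above all 3 β4e arrays for 450 probe sets (1.95%) and below them for 292 (1.27%).

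The pairs themselves differed in different probe sets. Within replicate 1, 173 probe sets were more than 1 log2 unit higher with β4b and 290 more than 1 unit lower. Replicate 2 had 151 and 9, and replicate 3 had 297 and 20. In the fit over the 3 pairs, 20 were higher and 4 lower by that much. Across the 23044 probe sets, the differences of replicates 1 and 2 correlated with r = 0.08, those of replicates 1 and 3 with r = 0.12 and those of replicates 2 and 3 with r = 0.0024. These coefficients run across probe sets, which are not independent replicates. Differences at an unadjusted p under 0.05 were less frequent among bright probe sets. When probe sets were ordered by mean level into 5 equal bins, 6.38% were higher and 3.43% lower in the middle bin, against 1.13% and 1.52% in the brightest.

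**Figure D1:**
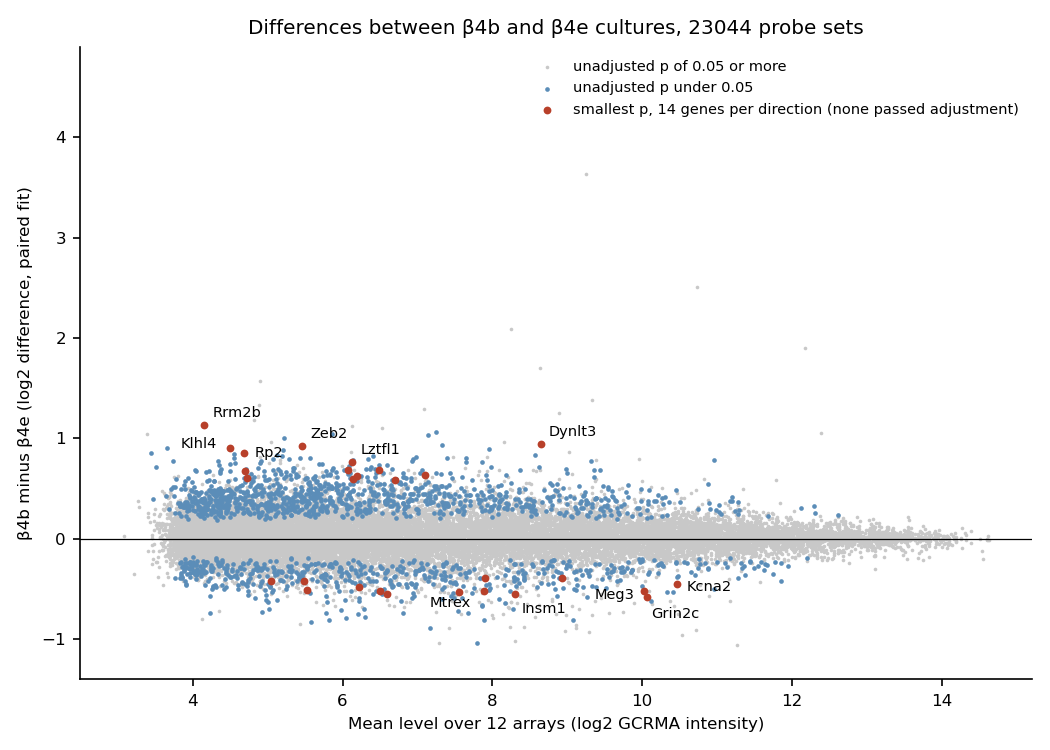
Difference between β4b and β4e cultures (log2, vertical axis) against the mean level over the 12 arrays (log2 GCRMA intensity, horizontal axis) for 23044 probe sets. Blue points have an unadjusted p under 0.05, and red points are the 14 genes per direction with the smallest p, none of which passed adjustment; the largest differences, up to 3.63 for Npas4, belong to grey points with an unadjusted p of 0.05 or more.

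Rrm2b encodes the p53-inducible small subunit of ribonucleotide reductase, which supplies deoxynucleotides outside S phase. Its probe set stood at 4.99, 4.74 and 4.88 in the β4b arrays, against 3.86, 3.74 and 3.61 in the β4e arrays. The groups did not overlap, and the 3 paired differences of 1.13, 1.0 and 1.27 were close to each other. The fitted difference was 1.13 ± 0.13 (SE, 95% interval 0.83 to 1.43, limma adjusted p = 0.237). The SE and interval came from the limma fit to the arrays of all groups, not from the spread of the 3 pairs alone. The β4e mean was below 4, near background, so the fold is not exact. Outside the β4b arrays it was above 4 only in the β4a and eGFP arrays of replicate 3 (4.29 and 4.19), so it met the filter through the group in which it was high. When the replicate number was taken as a random block in place of a fixed one, Rrm2b was the only probe set to pass (limma adjusted p = 0.0424). The other 3 probe sets of Rrm2b differed in the same direction, by 0.12 to 0.90. The group mean was 4.07 with β4a and 3.92 with eGFP.

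Zeb2, a zinc finger repressor that binds E-boxes, was at 6.06, 6.21 and 6.32 in the β4b arrays and 5.23, 5.20 and 5.39 in the β4e arrays. Every β4b array exceeded every β4e array, the difference was 0.92 (1.89-fold; limma adjusted p = 0.404), and the other 2 probe sets differed by 0.51 and 0.69. The means were 5.53 with β4a and 4.82 with eGFP. Dynlt3, a light chain of the dynein motor, was the brightest gene of this group. It stood at 9.16, 9.24 and 9.26 in the β4b arrays and at 8.36, 8.13 and 8.36 in the β4e arrays, a difference of 0.94 (1.92-fold; limma adjusted p = 0.404). Its other 3 probe sets differed less, by 0.13 to 0.50. Lztfl1, a regulator of protein traffic into cilia, was at 7.02, 6.58 and 6.21 with β4b and 6.05, 5.75 and 5.73 with β4e. That is a difference of 0.76 with no overlap (limma adjusted p = 0.404), and the other 3 probe sets of Lztfl1 differed less, by 0.14 to 0.38.

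The remaining genes among the 14 with the smallest p on the higher side had the same limma adjusted p of 0.404. They included Rab2a, a GTPase of traffic between the endoplasmic reticulum and the Golgi (0.60), Leprotl1, an endosomal membrane protein (0.63), and Rp2, which activates the GTPase of the ciliary protein Arl3 (0.85). Alcam, an adhesion molecule of axons, differed by 0.58, the lipid phosphatase Plpp1 by 0.63, the kinase Bmp2k by 0.60, Klhl4 by 0.90 and 2610507B11Rik by 0.69. For Bmp2k and Alcam the groups overlapped although the pairs were alike, and the replicates lay at different levels. Bmp2k was at 5.85, 4.92 and 4.59 in the β4b arrays and 5.28, 4.30 and 3.97 in the β4e arrays, with paired differences of 0.57, 0.62 and 0.62. Other probe sets of the genes in this paragraph mostly differed less. They lay at -0.01 to 0.23 for Rab2a, 0.10 for Leprotl1, 0.02 to 0.46 for Rp2 and 0.11 to 0.60 for Alcam. The other probe set was at 0.36 for Plpp1, 0.28 for Bmp2k and 0.10 for 2610507B11Rik, and Klhl4 had no other. In all, 7 of the 14, which were chosen for their small p, had no overlap between the groups, as did 1.95% of all probe sets in that direction.

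Probe sets of 1 gene did not always point the same way. Dlg4, the postsynaptic scaffold PSD-95, was at 5.78, 5.70 and 7.79 with β4b and 4.97, 5.03 and 7.21 with β4e in the probe set with the smallest p, a difference of 0.68 (limma adjusted p = 0.404). The probe set of Dlg4 with the highest mean differed by -0.18 (limma adjusted p = 0.809). Tmem106b, a lysosomal membrane protein, differed by 0.67 in 1 probe set and by -0.18 to 0.07 in the other 3. Which transcripts of these genes each probe set reads was not analysed here.

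**Figure D2:**
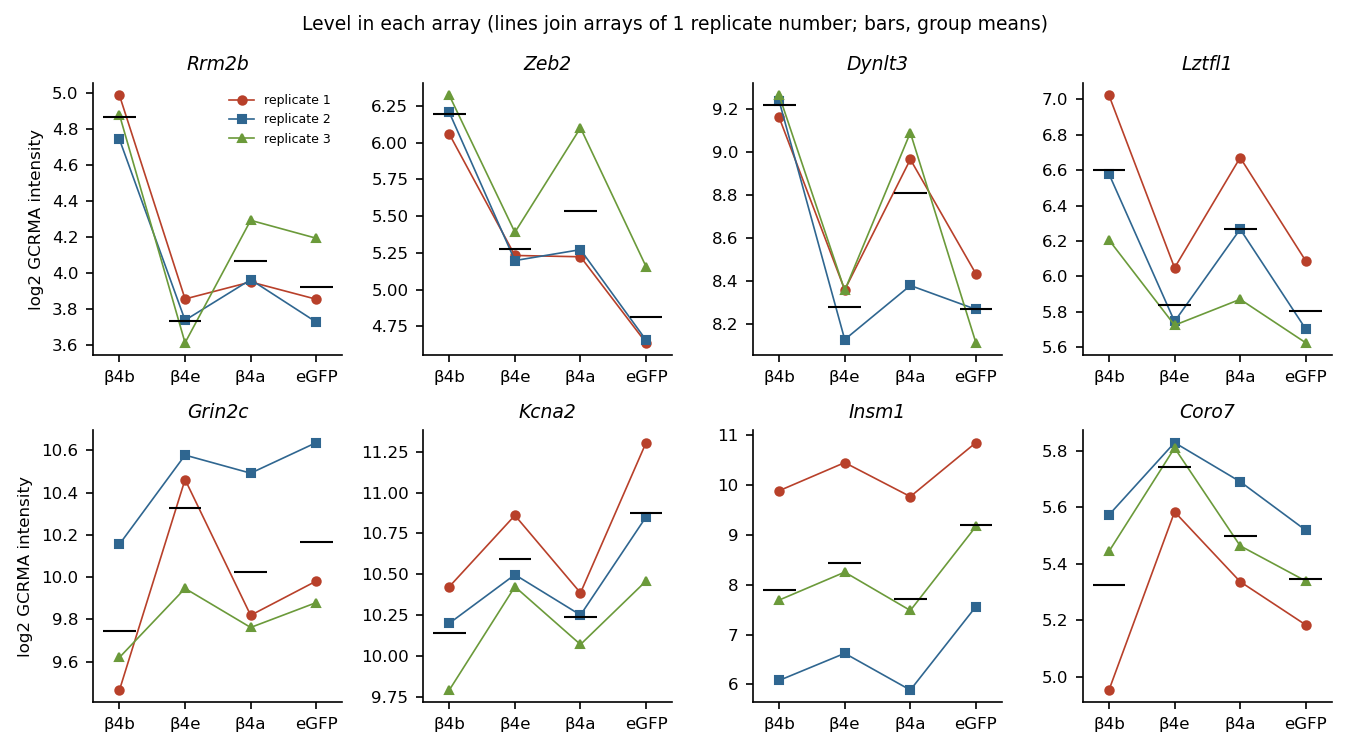
Level of 8 genes in each of the 12 arrays (log2 GCRMA intensity, 1 probe set per gene); lines and symbols join arrays that share a replicate number and black bars are group means, n = 3 each. Rrm2b, Zeb2, Dynlt3 and Lztfl1 were higher in every β4b array than in every β4e array, while Insm1 differed by nearly the same amount in each pair although its replicates lay far apart.

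On the lower side, the 14 genes with the smallest p shared a limma adjusted p of 0.663, with differences from -0.58 to -0.39. Grin2c, the NMDA receptor subunit that granule cells take up as they mature, was at 9.47, 10.16 and 9.62 in the β4b arrays and 10.46, 10.58 and 9.95 in the β4e arrays. The β4b array was the lower in each of the 3 pairs, with differences of -1.0, -0.42 and -0.33. The fitted difference was -0.58 ± 0.13 (SE, 95% interval -0.88 to -0.28), or 1.50-fold lower. This SE and interval also came from the limma fit to the arrays of all groups. They do not give the spread of the 3 pairs alone, which were uneven. Kcna2, the Kv1.2 potassium channel of axons, was at 10.42, 10.20 and 9.79 with β4b and 10.86, 10.50 and 10.42 with β4e. The groups did not overlap, the difference was -0.46, and the other probe set of Kcna2 differed by -0.53. The Kcna2 means were 10.14 with β4b, 10.59 with β4e, 10.23 with β4a and 10.87 with eGFP, so the eGFP mean lay above that of β4e.

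Insm1, a zinc finger factor of neuronal progenitors and neuroendocrine cells, had the most even paired differences. It stood at 9.88, 6.08 and 7.69 in the β4b arrays and 10.45, 6.62 and 8.25 in the β4e arrays. Replicates spanned several log2 units within each group, so the groups overlapped, yet the paired differences were -0.56, -0.54 and -0.56. The means were 7.88 with β4b, 8.44 with β4e, 7.71 with β4a and 9.19 with eGFP, so β4e also lay below eGFP. The other probe set of Insm1 differed by -0.63, with uneven pairs of -1.86, 0.09 and -0.14. Coro7, a coronin of the Golgi, was at 4.95, 5.57 and 5.44 with β4b and 5.58, 5.83 and 5.81 with β4e, without overlap (-0.42). Its probe set carries the suffix for probes shared between transcripts, and its other 4 probe sets differed by -0.23 to -0.06. Probe sets of other named genes also carry a suffix for probes that are not unique, among them Lztfl1, Rab2a, F2r, Ly6e, Erdr1, Klhl24, Stx1a and Cdc20. Meg3, an imprinted long non-coding RNA, differed by -0.52, and 9 of its other 10 probe sets were also below 0.

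The rest of the lower group held Mtrex, the helicase of the nuclear RNA exosome (-0.52), Sinhcaf of the Sin3 deacetylase complex (-0.43) and the centrosomal Cspp1 (-0.39). It also held Ly6e (-0.53), Tsks (-0.55), Pitpnc1 (-0.48), E530011L22Rik (-0.51), Pisd-ps3 (-0.52) and Erdr1 (-0.39). Other probe sets lay at -0.11 for Mtrex, -0.27 to 0.09 for Cspp1, -0.38 for Ly6e, -0.34 to 0.26 for Pitpnc1 and -0.61 to -0.09 for Pisd-ps3. Pisd-ps3 is a pseudogene, and signal from near-identical copies cannot be separated from its own. Of these 14, also chosen for their small p, 3 had no overlap between groups, as did 1.27% of all probe sets in that direction.

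Larger differences with a less even spread were found further down the ranking (unadjusted p under 0.05, limma adjusted p from 0.595 to 0.695). Gna13, the α subunit of a heterotrimeric G protein, was at 6.03, 5.13 and 6.02 in the β4b arrays and 5.28, 3.88 and 5.00 in the β4e arrays, a difference of 1.01, and its other 6 probe sets were all above 0. F2r, the thrombin receptor, differed by 0.93 (0.61, 0.63 and 1.55 in the pairs). Lcorl differed by 1.04 without overlap, as found for 1.95% of all probe sets in that direction. Its eGFP mean of 5.97 lay nearer to the β4b mean of 6.27 than to the β4e mean of 5.24. Its other 3 probe sets differed by -0.01 to 0.22. Klhl24, Prex2 and Cldnd1 differed by 1.06, 1.04 and 0.89, and in each of them 1 or 2 pairs carried most of the difference. Klhl24 had paired differences of 1.86, 1.23 and 0.09, with its other 4 probe sets at -0.10 to 0.80, and Prex2, an exchange factor for Rac, had 0.62, 0.34 and 2.15.

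On the lower side of this group, Stx1a, the syntaxin of synaptic vesicle fusion, was at 8.69, 5.14 and 5.82 with β4b and 9.15, 6.29 and 6.88 with β4e (-0.89). Its other probe set differed by -0.49. Oprl1, the nociceptin receptor, differed by -0.74, the kinase Tnik by -0.74, the collagen gene Col27a1 by -0.71, Rap1gap, which inactivates the GTPase Rap1, by -0.70, and the sialyltransferase gene St6galnac3 by -0.70. For Tnik the paired differences were -1.59, -0.02 and -0.60, so that replicate 2 contributed next to nothing. Other probe sets lay at -0.35 for Oprl1, -0.50 to -0.03 for Tnik and -0.02 for Col27a1.

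Cacnb4 itself was read by 3 probe sets. In the first, 1428928_at, the values were 10.31, 10.55 and 10.72 with β4b and 10.50, 10.69 and 10.99 with β4e, a difference of -0.20 (95% interval -0.45 to 0.05; limma adjusted p = 0.756). In the second, 1436912_at, they were 11.98, 11.80 and 12.09 with β4b and 11.91, 11.87 and 12.15 with β4e, a difference of -0.02 (-0.21 to 0.17; limma adjusted p = 0.973). In the third, 1452089_at, they were 10.23, 9.99 and 10.32 with β4b and 10.02, 9.41 and 10.20 with β4e, a difference of 0.30 (0.02 to 0.58; limma adjusted p = 0.691). The eGFP means of these probe sets were 10.88, 12.09 and 9.74, so the signal was high without any viral β4. Where the probes lie relative to the viral insert was not analysed here, and these values therefore check neither the labels nor the level of the delivered variants.

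Other subunits of voltage-gated calcium channels lay mostly below 0. Of 14 measured members of the list, 11 were below 0 and 3 above, against 46.3% and 53.7% of all 10983 genes, and the median was -0.13, against 0.01 over all genes. After centring the arrays the list had the same 11 and 3 and a median of -0.17, against -0.02 over all genes, of which 6221 were then below 0 and 4762 above. Over all 23044 probe sets the shares were 53.6% above and 46.4% below. No member was higher in all 3 pairs and 5 were lower in all 3 (35.7%, against 11.9% of all genes). None passed adjustment, and 2 had an unadjusted p under 0.05 on the lower side, where all genes had 2.16%. Cacna1b, the pore of N-type channels at presynaptic terminals, stood at 9.74, 9.94 and 9.68 in the β4b arrays and 9.81, 10.18 and 10.09 in the β4e arrays (-0.24; limma adjusted p = 0.690). Cacna1g, the pore of a T-type channel, stood at 5.39, 4.53 and 4.89 with β4b and 5.74, 4.85 and 5.13 with β4e (-0.30; limma adjusted p = 0.690). Cacna1a, the P/Q-type pore that β4 partners in the cerebellum, was at 11.26, 11.11 and 11.07 with β4b and 11.07, 11.26 and 11.37 with β4e (-0.09), with pairs of both signs. Cacna1e (-0.22) and the TARP gene Cacng2 (-0.17) were lower in all 3 pairs. The list's median was -0.31 in replicate 1, -0.04 in replicate 2 and -0.09 in replicate 3.

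Genes of synaptic transmission showed small differences with β4b, more of them below 0 than above. In the list of presynaptic vesicle and active zone genes, 23 of 34 measured members were below 0 and 13 (38.2%) were lower in all 3 pairs, against 2 (5.88%) higher in all 3, where all genes had 11.9% and 14.9%. The median was -0.06, and 5 members had an unadjusted p under 0.05, all lower, where all genes had 2.16% lower and 3.23% higher. Besides Stx1a these were Sv2a, a vesicle glycoprotein (-0.32), Rab3c, a vesicle GTPase (-0.26), Unc13b, a priming factor (-0.35), and Pclo, the active zone scaffold piccolo (-0.24). Sv2a was at 11.11, 11.78 and 11.53 in the β4b arrays and 11.74, 12.01 and 11.62 in the β4e arrays. Snap25, the membrane SNARE of the same fusion machinery, stood at 14.56, 14.73 and 14.54 with β4b and 14.51, 14.81 and 14.55 with β4e (-0.01). The size of the list's median depended on the probe sets and the scaling: it was -0.02 over all tested probe sets of the members and -0.10 after centring the arrays.

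Of 16 measured glutamate receptor genes, 11 were below 0, with a median of -0.08. In all 3 pairs 5 were lower (31.2%) and none was higher, where all genes had 11.9% and 14.9%. Besides Grin2c, these 5 included the kainate receptor subunit Grik5 (-0.33) and the AMPA receptor subunit Gria2 (-0.19). The others were the metabotropic receptors Grm4 (-0.22) and Grm5 (-0.32). Grik5 lay near background, with means of 3.92 with β4b and 4.24 with β4e. Gria1, also an AMPA receptor subunit, had the largest value of the list, 0.86, which came from replicate 3: it was at 5.32, 6.53 and 9.07 in the β4b arrays and 5.68, 6.46 and 6.20 in the β4e arrays. Postsynaptic scaffold and adhesion genes had 13 of 19 below 0 and a median of -0.05. Nlgn3, a neuroligin, was the member with the smallest p (-0.33; limma adjusted p = 0.663). The 11 GABA and glycine genes had a median of -0.03 and 8 below 0.

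Potassium channel genes had 17 of 31 above 0 and 14 below, with a median of 0.03; after centring it was 14 and 17, with a median of -0.004. Kcnip3, a calcium-binding partner of A-type channels, was lower in every β4b array than in every β4e array (5.74, 5.92 and 5.80, against 5.96, 6.21 and 6.13), as were 1.39% of all genes. Sodium channel genes were split evenly, 5 above and 5 below 0 (3 and 7 after centring), with Scn8a, the channel of axon initial segments, at -0.24 (limma adjusted p = 0.690). Among calcium stores, pumps and exchangers, 14 of 25 were below 0 (18 after centring), with Orai2, a pore of store-operated entry, at -0.52. Calcium-dependent kinases, phosphatases and transcription factors had 19 of 28 below 0 and a median of -0.07. The transcription factor Mef2c of this list was at 8.40, 8.93 and 8.09 with β4b and 8.29, 8.44 and 7.46 with β4e (0.41; limma adjusted p = 0.702).

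**Figure D3:**
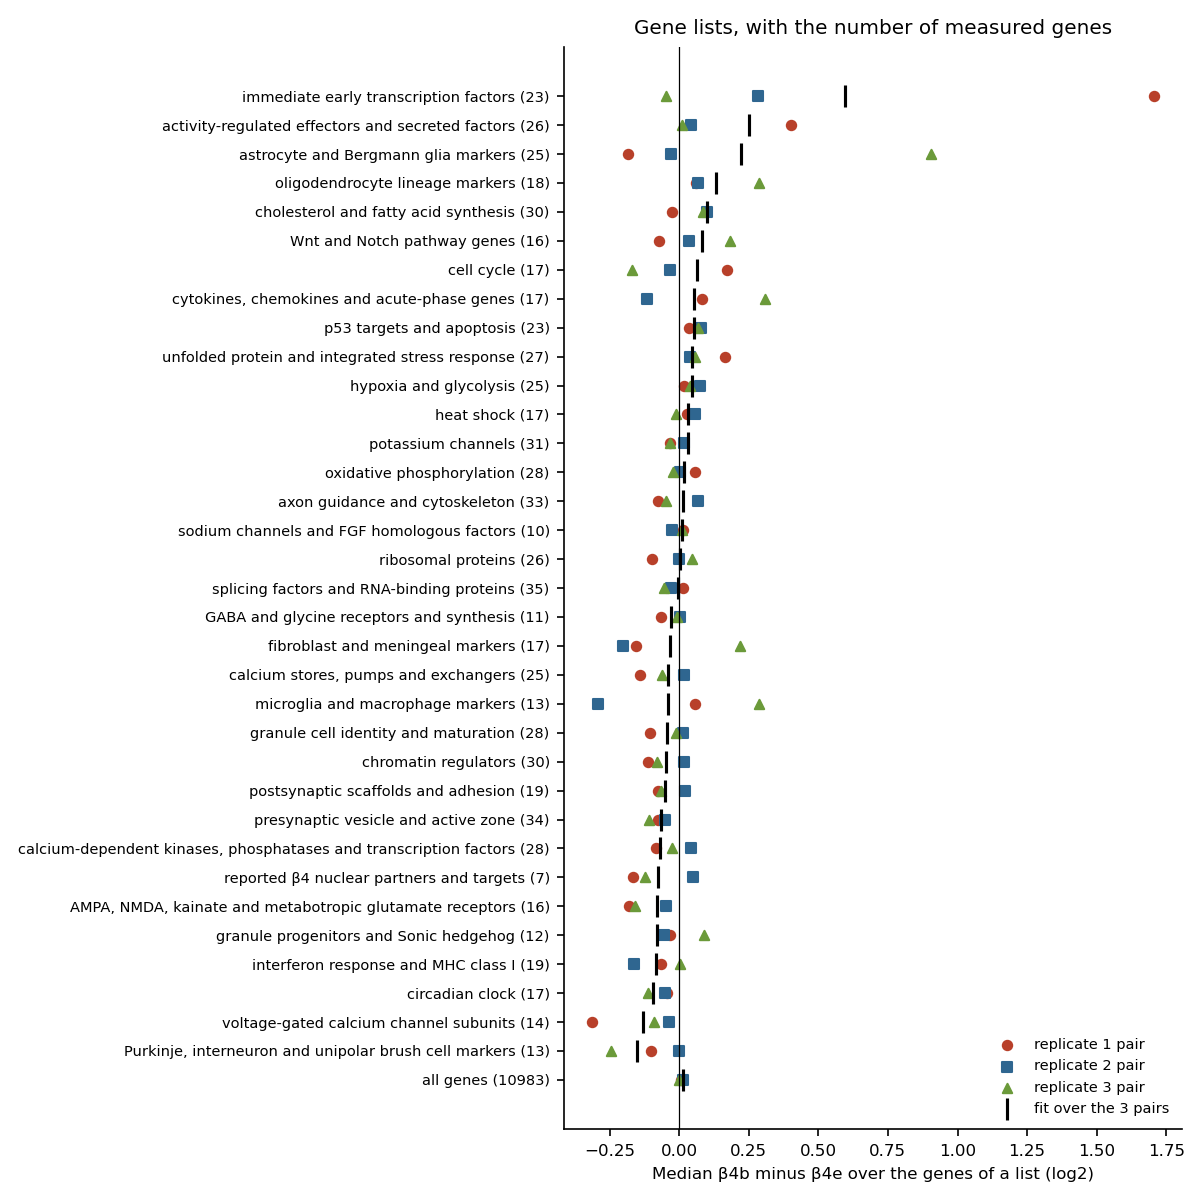
Median β4b minus β4e difference (log2, horizontal axis) over the measured genes of each list; the number in parentheses is the number of genes, coloured symbols are the replicate pairs and the black bar is the fit over all 3 pairs. The bottom row holds all 10983 genes, whose medians lie close to 0, while immediate early factors reach 1.71 in replicate 1 and astrocyte markers reach 0.90 in replicate 3.

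The list that lay farthest from 0 was that of immediate early transcription factors, which neurons switch on within minutes of calcium entry without new protein synthesis. Of 23 measured members, 22 were above 0 with β4b (21 after centring) and the median was 0.60, but none passed adjustment or an unadjusted p of 0.05, where 3.23% of all genes were higher with β4b. The excess stood mainly in replicate 1. The list's median was 1.71 in that pair, 0.28 in replicate 2 and -0.05 in replicate 3, where 10 of 23 members were above 0. Without replicate 1 the median was 0.08, without replicate 2 it was 0.75, and without replicate 3 it was 1.04. Averaged over the list, the level was 9.14, 8.81 and 7.20 in the β4b arrays and 6.59, 8.55 and 7.29 in the β4e arrays. It was 10.46, 9.76 and 7.32 in the β4a arrays and 6.89, 8.25 and 7.38 in the eGFP arrays, so that in replicate 1 the β4a and β4b arrays were high and the β4e and eGFP arrays low. The 3′ minus 5′ difference of Gapdh in replicate 1 was 0.09 with β4b and 0.40 with β4e, and 0.22 with β4a and 0.39 with eGFP. Its part in this difference was not tested.

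Npas4, a transcription factor specific to neurons and to calcium entry, had the widest range of all. It stood at 12.89, 12.27 and 7.35 in the β4b arrays and at 3.20, 11.90 and 6.52 in the β4e arrays, so that the β4e array of replicate 1 was near background while that of replicate 2 was close to its β4b partner. The fitted difference of 3.63 had a 95% interval of -1.38 to 8.65 (limma adjusted p = 0.772). Fos, the AP-1 subunit, was at 14.17, 13.90 and 11.08 with β4b and 8.52, 13.62 and 11.31 with β4e. Egr3, a zinc finger factor, was at 12.33, 11.61 and 10.34 with β4b and 4.69, 11.26 and 10.79 with β4e. The same order in replicate 1 was seen for the nuclear receptor gene Nr4a1 (11.01, 10.17 and 6.36 with β4b, 4.57, 10.12 and 6.59 with β4e).

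Higher values with β4b in all 3 pairs were seen for 7 members (30.4%, against 14.9% of all genes): Npas4, Egr1, Egr2, Ier2, Junb, Jun and Atf3. Egr2 was at 8.07, 4.74 and 3.65 with β4b and 4.00, 4.27 and 3.49 with β4e, paired differences of 4.08, 0.47 and 0.16. Egr1 was at 13.64, 12.99 and 12.03 with β4b and 10.76, 12.73 and 12.00 with β4e, a difference of 1.05 that shrank to 0.26 and 0.03 in replicates 2 and 3. In Nr4a2, Nr4a3 and Fosl2 the pair of replicate 3 pointed the other way: Nr4a3 was at 7.12, 8.40 and 5.17 in the β4b arrays and 3.95, 8.42 and 6.52 in the β4e arrays.

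Among members higher in all 3 pairs, the 4 with the smallest p were Egr2, Egr1, Ier2 and Npas4. No promoter was available for Egr1 and Ier2, so the promoters of Npas4 and Egr2 are shown. Both are from RefSeq on GRCm38.p6, from 250 bases before to 50 bases after the transcription start, written 5′ to 3′ on the strand of the gene, with the core of the cyclic AMP response element (TGACG, or CGTCA where it lies on the opposite strand) in capitals. The Npas4 window lies at chr19:4989922-4990221 on the minus strand and the Egr2 window at chr10:67537619-67537918 on the plus strand.
Npas4: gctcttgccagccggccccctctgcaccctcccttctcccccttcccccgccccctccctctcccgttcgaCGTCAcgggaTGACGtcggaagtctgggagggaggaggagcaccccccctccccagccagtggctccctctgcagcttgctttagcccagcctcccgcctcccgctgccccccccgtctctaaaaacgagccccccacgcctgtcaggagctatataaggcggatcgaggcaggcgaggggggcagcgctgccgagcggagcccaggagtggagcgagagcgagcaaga
Egr2: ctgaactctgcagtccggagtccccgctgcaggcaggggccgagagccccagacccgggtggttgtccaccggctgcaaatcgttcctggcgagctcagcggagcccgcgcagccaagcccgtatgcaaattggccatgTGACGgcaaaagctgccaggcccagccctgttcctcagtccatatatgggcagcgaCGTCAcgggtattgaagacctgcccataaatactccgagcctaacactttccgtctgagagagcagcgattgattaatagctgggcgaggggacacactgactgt
Each window holds 2 copies of the core, and neither holds the full element TGACGTCA, which contains a core on each strand. Where a gene had several windows, the one with the most matches was printed, so the copies shown for Egr2 follow partly from that choice. The Egr2 windows that begin at 67535249 and 67537316 hold 0 copies. Among the 18 members of the list with a promoter in the table, 13 (72.2%) had a core in a window, compared with 36.6% of 8916 tested genes and 23% of all 27025 genes with a promoter. The full element was in the promoter of 1 of the 18 (5.56%, Maff), compared with 3.69% of the tested genes. Maff was at 5.53, 5.09 and 4.24 with β4b and 5.35, 5.16 and 4.29 with β4e. Of the 14 higher genes named above, 10 had a promoter, and 7 of these had a core in a window. Of the 14 lower ones 9 had a promoter, and 5 of these had a core. The full element was in 0 of those 10 genes and in 1 of those 9. A match describes the letters of the window and does not show that a factor binds there.

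Activity-regulated effectors and secreted factors were less uneven. Of 26 measured members, 18 were above 0, with a median of 0.25 that came to 0.0014 without replicate 1. In all 3 pairs 10 were higher (38.5%) and 2 lower (7.69%), where all genes had 14.9% and 11.9%. Dusp6, a phosphatase that switches off ERK, was at 9.49, 10.18 and 9.65 in the β4b arrays and 8.40, 9.97 and 8.63 in the β4e arrays (0.77; limma adjusted p = 0.690). Ptgs2, the inducible cyclooxygenase, was at 8.47, 6.48 and 5.51 with β4b and 7.53, 6.41 and 4.15 with β4e (0.79; limma adjusted p = 0.690). For both, the gap was smallest in replicate 2. Bdnf, the neurotrophin, was at 6.88, 10.33 and 7.02 with β4b and 4.75, 10.35 and 7.36 with β4e, again with the widest gap in replicate 1. Pim1, a kinase, was the member with the smallest p and lay below 0 (-0.31, limma adjusted p = 0.676). It was near background, with means of 3.99 with β4b and 4.30 with β4e.

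**Figure D4:**
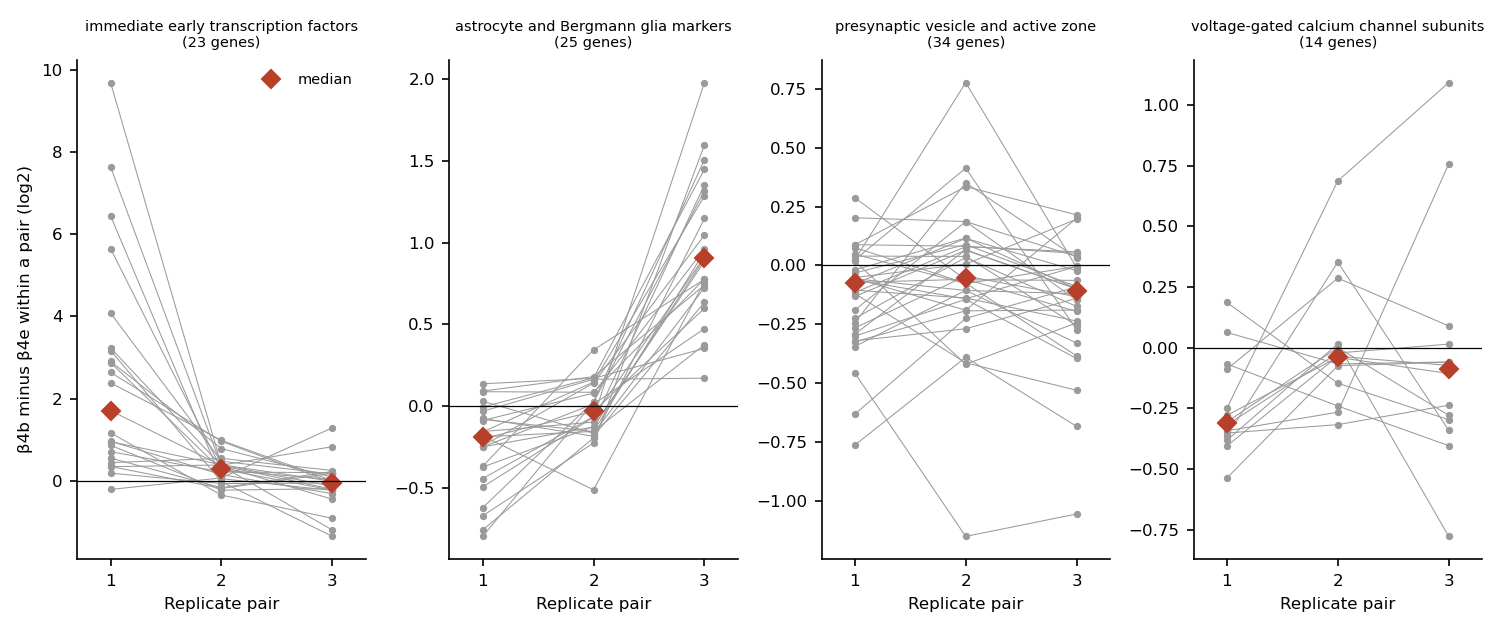
Difference between the β4b and β4e array of each replicate pair (log2, vertical axis) for every measured gene of 4 lists; grey lines are genes and red diamonds are list medians. Immediate early factors lie above 0 in replicate 1 and around 0 in replicate 3, astrocyte markers lie above 0 in replicate 3, and the medians of presynaptic and calcium channel genes lie slightly below 0 in each pair.

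Glial transcripts differed in another pair. All 25 measured astrocyte and Bergmann glia markers were above 0 in the fit (23 after centring), with a median of 0.22, but 3 were higher in all 3 pairs (12%, against 14.9% of all genes). The list's median was -0.19 in replicate 1, -0.03 in replicate 2 and 0.90 in replicate 3, where 25 of 25 were above 0, and it came to -0.12 without replicate 3. Averaged over the list, the level was 9.42, 9.42 and 10.25 in the β4b arrays and 9.66, 9.44 and 9.30 in the β4e arrays, with 9.45, 9.16 and 9.98 in the β4a arrays and 9.71, 8.60 and 8.93 in the eGFP arrays. In replicate 3 both the β4b and the β4a array were thus above the β4e and eGFP arrays. Gfap, the intermediate filament of astrocytes, stood at 10.91, 11.25 and 12.69 with β4b and 11.53, 11.22 and 11.18 with β4e. Slc1a3, the glutamate transporter of astrocytes and Bergmann glia, was at 9.57, 10.26 and 11.42 with β4b and 9.72, 10.36 and 10.06 with β4e. The β4b array of replicate 3 was thus the highest of the 6 for both genes. S100b, Glul and Slc1a2 were higher in all 3 pairs, by 0.34, 0.32 and 0.22 in the fit. The part of glial transcripts in the differences of other genes was not tested.

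Oligodendrocyte markers had 16 of 18 above 0, with a median of 0.13 (0.06, 0.07 and 0.29 in the pairs). In all 3 pairs 8 were higher (44.4%) and 2 lower (11.1%), where all genes had 14.9% and 11.9%. Enpp6, a marker of newly forming oligodendrocytes, was at 7.25, 5.92 and 5.08 in the β4b arrays and 5.94, 5.71 and 4.71 in the β4e arrays (0.63; limma adjusted p = 0.673). Mog, a myelin protein, was at 9.06, 7.76 and 7.20 with β4b and 8.51, 7.70 and 6.51 with β4e (0.43; limma adjusted p = 0.695). Mobp and Opalin, also myelin genes, were the 2 members below 0 (-0.51 and -0.23). Microglial markers had medians of 0.06, -0.29 and 0.29 in the pairs, and 8 of 13 were below 0. Fibroblast and meningeal markers had 10 of 17 below 0, with a median of -0.03 made up of pairs of both signs (-0.15, -0.20 and 0.22), and 15 of 17 were above 0 in replicate 3. Of Purkinje cell, interneuron and unipolar brush cell markers, 10 of 13 were below 0 with a median of -0.15, among them Pcp4 (-0.53) and Slc32a1, the vesicular transporter of inhibitory neurons (-0.41). Car8, a Purkinje cell marker of that list, was higher with β4b in all 3 pairs (0.40, 0.53 and 0.25). Pdgfrb, the pericyte receptor, was the only measured member of its list and stood at 4.61, 3.19 and 3.26 with β4b and 4.44, 2.88 and 2.55 with β4e.

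Granule cell identity genes were close to 0, with a median of -0.04 over 28 members, 10 above 0 and 18 below (5 and 23 after centring). Grin2c had the smallest p there, and Tiam1, a Rac exchange factor, was at 11.09, 11.52 and 11.74 with β4b and 10.55, 11.35 and 11.58 with β4e (0.29; limma adjusted p = 0.695). Progenitor and Sonic hedgehog genes had 7 of 12 below 0, and cell cycle genes had 10 of 17 above. Cdc20, which activates the anaphase-promoting complex, was at 5.56, 4.81 and 5.06 with β4b and 6.05, 4.94 and 5.71 with β4e (-0.42; limma adjusted p = 0.663). Of genes reported in connection with nuclear β4, 7 of 9 were measured. Nr4a1, described above with its gap in replicate 1, had the largest value (2.09), and 5 were below 0, among them the thyroid hormone receptor gene Thra (-0.08) and the phosphatase regulator Ppp2r5d (-0.12). Ppp2cb, a catalytic subunit of that phosphatase, was at 10.27, 10.42 and 10.06 with β4b and 10.07, 10.31 and 9.82 with β4e (0.18; limma adjusted p = 0.759).

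Stress and metabolic lists had medians between 0.03 and 0.10 as deposited, and between -0.0034 and 0.07 after centring. Unfolded protein and integrated stress response genes had 19 of 27 above 0 (15 after centring), with Pdia3, a disulfide isomerase of the endoplasmic reticulum, at 11.73, 11.10 and 10.56 in the β4b arrays and 11.23, 10.83 and 10.26 in the β4e arrays (0.36; limma adjusted p = 0.675). Heat shock genes had 10 of 17 above 0 (8 after centring). Dnajb1, a co-chaperone of Hsp70, was the most even of them, at 10.72, 10.65 and 10.00 with β4b and 10.41, 10.25 and 9.67 with β4e (0.35; limma adjusted p = 0.663). Among p53 targets and apoptosis genes, 15 of 23 were above 0, with the anti-apoptotic Bcl2 at 0.35 and the death genes Hrk and Bak1 at -0.33 and -0.30. Rrm2b was named above by its p and not through this list.

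Sterol and fatty acid synthesis genes had 20 of 30 above 0 and a median of 0.10, with Fdps, an enzyme of the isoprenoid branch, at 0.32 and Mvd, which acts just before it, at -0.40. Mvd was lower in every β4b array than in every β4e array (5.12, 5.06 and 5.47, against 5.67, 5.52 and 5.66), as were 1.39% of all genes. Hypoxia and glycolysis genes had 14 of 25 above 0, with the vasodilator peptide gene Adm at 0.39. In all 3 pairs 6 were higher (24%) and none lower, where all genes had 14.9% and 11.9%. Axon guidance and cytoskeleton genes were split 18 above 0 and 15 below (13 and 20 after centring), with Robo1, a Slit receptor (0.33), Slit2, its ligand (0.37), and Sema5a, a semaphorin (0.74), at an unadjusted p under 0.05, where 3.23% of all genes were higher. Sema5a was at 6.35, 5.26 and 6.51 with β4b and 5.19, 4.73 and 5.97 with β4e. Slit2 lay near background, at 4.34, 3.89 and 4.07 with β4b and 3.94, 3.87 and 3.39 with β4e. Its paired differences were uneven, at 0.40, 0.02 and 0.69. Wnt and Notch genes had 12 of 16 above 0, and Jag1, a Notch ligand, was higher in every β4b array than in every β4e array, as were 1.38% of all genes (0.57; limma adjusted p = 0.758).

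Ribosomal protein genes had a median of 0.00 (-0.03 after centring) with members from -0.09 to 0.16, and oxidative phosphorylation genes had 0.02 (-0.02 after centring) with members from -0.10 to 0.12. Splicing factor genes had 17 of 35 above 0 (10 after centring), with Hnrnpa1 at -0.19, and chromatin regulators had 22 of 30 below 0 and a median of -0.05, with the histone methyltransferase gene Setdb1 at -0.32. Clock genes had 10 of 17 below 0 and a median of -0.10, although Bhlhe40, a repressor in the clock, stood at 0.48. Interferon and MHC class I genes had 13 of 19 below 0. In all 3 pairs 5 were lower (26.3%) and none higher, where all genes had 11.9% and 14.9%. Cytokine genes had 11 of 17 above 0 with a median of 0.06, and by pair of 0.08, -0.11 and 0.31.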

How the data were processed

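Each of 12 samples was measured on 1 Affymetrix array from 500 ng of RNA. The deposited values were log2 intensities made with GCRMA by the authors, per the submitters' processing notes, with the version not stated there. They were used as deposited. AFFX controls (64 probe sets) were left out. Of 23044 tested probe sets, 19477 had 1 gene symbol, 534 several and 3033 none. The fit was lmFit and eBayes in limma 3.58.1 (R 4.3.3) over 4 groups, with the replicate number from the titles as a block (6 residual degrees of freedom), two-sided, Benjamini-Hochberg adjusted over 23044 probe sets, threshold 0.05. Same-numbered arrays deviated together from their group means, with r 0.745 to 0.852 over the 3 pairs of β4b with β4e. Over all 18 such pairs r was 0.700 to 0.884, and other pairs reached at most 0.146. Deviations cancel out over the 3 arrays of a group, which lowers r for the other pairs. The levels themselves correlated with r 0.982 to 0.996 in same-numbered pairs and 0.934 to 0.980 in other pairs. Lists took the probe set with the highest mean per gene (10983 genes) and were only described. The number of arrays limits the precision.

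Members and lists were chosen with earlier results of these data known. Named genes had 1 sign in all 3 pairs and were the 14 per direction with the smallest p, 6 further per direction with the largest difference at an unadjusted p under 0.05, Cacnb4, and up to 4 per list with the smallest p. Cacna1a, Snap25, Pclo, Grm5, Gria1, Fos, Egr3, Nr4a1, Nr4a2, Nr4a3, Fosl2, Junb, Jun, Atf3, Maff, Bdnf, Gfap, Slc1a3, Opalin and Thra were named after their values were seen. The fit was tested on simulated data. Alternatives changed the block, the arrays, the filter, the scaling and the prior.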

Additional observations from a re-analysis of the deposited data

How the results depend on the processing

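Counts depended most on the replicate block and the filter. Without the replicate block, 175 probe sets had an unadjusted p under 0.05, against 1638 with it, and 0 passed in either. With a floor of 6 in place of 4 there were 928 of 13926, and with no filter 2963 of 45037. Leaving out arrays or replicate numbers gave 1191 to 1831, and without replicate 2 the split turned to 568 higher and 623 lower. The number past the threshold was 0 in every alternative run except the random block, which gave 1 (Rrm2b, limma adjusted p = 0.0424; over all alternatives 0.0424 to 0.917). Of 3710 values of named probe sets, 10 changed sign, all of differences that did not pass: with arrays left out Cacnb4 (1436912_at) ranged from -0.0622 to 0.0121, Csf1r from -0.143 to 0.0807, Gabra6 from -0.0517 to 0.0141, Rps18 from -0.0924 to 0.0052 and Tef from -0.525 to 0.104, and Rpl7 was -0.0091 after centring. With arrays left out, the median of immediate early factors ranged from 0.08 to 1.04 and that of astrocyte markers from -0.12 to 0.49. Of 839 list medians, 57 moved by more than the spread between pairs. A smaller move could still change the sign of a median near 0. With arrays left out, that of cell cycle genes ranged from -0.0956 to 0.109 and that of cytokine genes from -0.0677 to 0.185. Some others kept their sign, such as calcium channel genes (-0.214 to -0.0644) and presynaptic genes (-0.117 to -0.0393). The causes were not tested. Values near the floor of 4 lie close to background, where the size of a difference is not exact.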
